A study of Homo sapiens with 4 samples.

Results

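Core proteins of the spliceosome other than those specific to the U5 particle were examined at the mRNA level in breast cancer cells depleted of SNRNP40. The set holds 50 genes, chosen by symbol from knowledge of the machinery, though with earlier results of these data known. It covers the Sm and LSm rings, the proteins specific to U1 and U2, U2AF, and proteins of the U4/U6 particle and the tri-snRNP. The Prp19 complex and its partners, the DEAH-box helicases and the factors of the second step complete it. All 50 were found, as 93 of the 44578 transcripts and 50 of the 23217 gene symbols in the deposited table. Sm proteins also encircle the U5 RNA, so the set leaves out U5-specific proteins rather than all proteins that U5 contains.

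RNA came from LV-M100, a single clonal subpopulation of MDA-MB-231, which is a triple-negative human breast cancer line of mesenchymal appearance. The study had selected this clone as one of low cell-to-cell variability, and asked what losing SNRNP40 does to transcript levels. Total RNA was taken 48 hours after lipid transfection, depleted of ribosomal RNA and sequenced as 4 libraries. In the siControl group, 1 library received the control siRNA NC1 (IDT) and the other the BLOCK-iT Fluorescent Oligo (Life Technologies). In the siSNRNP40 group, each of the 2 libraries received a different siRNA against SNRNP40. All 4 were transfected, and neither group holds untreated cells. The deposited values average the 2 libraries of a condition, so every comparison below sets 1 pooled value against 1 pooled value. None has a replicate error or a test, the depth behind it is unknown, and siRNA #1 and siRNA #2 cannot be told apart.

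Spliceosomes remove introns by assembling small nuclear ribonucleoproteins (snRNPs) on each pre-mRNA. U1 marks the upstream splice site, U2 with its SF3A and SF3B proteins takes the branch point, and U4/U6 and U5 join as the tri-snRNP. The Prp19 complex then stabilises the activated machine, DEAH-box helicases drive its rearrangements, and a few late factors help join the exons. SNRNP40 is a WD40-repeat protein of U5, so none of the 50 genes is itself the target of the siRNAs.

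The 2 siRNAs are printed because they define the treatment and because short matches to them were looked for in the 50 mRNAs. The strand given in the labels has the sense of the SNRNP40 mRNA. Capitals mark the bases that would pair with positions 2 to 8 (the seed) of a guide strand that is its exact complement, which is an assumption about the design.
siSNRNP40 #1: ggaauagacaAUGAUAUc
siSNRNP40 #2: ggauuugaccGACUGAUa
On GRCh37, the first matched exon 5 of SNRNP40 at chr1:31754224-31754241 and the second exon 2 at chr1:31766067-31766084, both on the minus strand and in coding sequence. No complete match to either was present in the 50 genes. The longest run shared with any of them was 10 bases for siRNA #1, in SART1 and SF3B3, and 8 bases for siRNA #2.

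SNRNP40 itself stood at 40.4 FPKM (fragments per kilobase of transcript, scaled to the total of mapped fragments) in siControl and 6.12 FPKM in siSNRNP40 cells, 84.9% lower. Its log2 fold change of -2.72 was the second lowest of the 12334 genes with a mean of at least 1 FPKM. Here and below a gene's level is the FPKM summed over its transcripts, and a fold change is siSNRNP40 over siControl with no pseudocount. Markers of the line were present: VIM stood at 750.1 and 733 FPKM in siControl and siSNRNP40 cells, and CD44, CAV1, AXL, ANXA1 and MSN were above 100 FPKM in both. ESR1, PGR, CDH1 and FOXA1 were below 0.1 FPKM, GATA3 was at 1.32 and 1.18 FPKM, and EPCAM at 10.6 and 10 FPKM. Of markers of other cells, PTPRC and ALB were listed at 0, COL1A1 and COL3A1 were below 0.2 FPKM, and PECAM1 was at 0.922 and 1.2 FPKM. In bulk RNA, fewer cells of a kind and less RNA per cell cannot be told apart.

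The 50 mRNAs differed little between these pooled values. Their summed level was 3785 FPKM in siControl and 3892 FPKM in siSNRNP40 cells, 0.733% and 0.753% of all FPKM. The median log2 fold change was 0.070, with an SD across genes of 0.19, against a median of 0.0034 and an SD of 0.34 over all 12334 genes. Of the 50, 32 were above 0 and 18 below (64% above, against 50.5% of all genes).

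As a bound of description, a gene was counted as past the bound when its level was at least 25% higher or at least 20% lower in siSNRNP40 cells, which is the same ratio in either direction (0.322 on the log2 scale). LSM7, SF3B4 and SYF2 were past the bound and higher, and SNRPA was past it and lower. With a pseudocount of 1, SF3B4 came to 0.31 and only 2 genes were past it and higher, and with upper quartile scaling PRPF4 came to 0.35 and 4 were. Among all genes past the filter, 11.9% were past the bound and higher and 11.5% past it and lower, 23.4% in all. Within the bound stayed 92% of the set, 46 of 50 genes, against 76.6% of all genes. None of the 50 differed by 1.5-fold, a size that 7.02% of all genes reached, or by 2-fold, which 1.47% reached.

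Low genes scattered more than high ones, so the comparison was repeated by level. The 50 genes were well expressed, with means from 3.99 FPKM (SF3B4) to 459 FPKM (SNRPG) and a median of 50.4 FPKM against 10.7 FPKM for all genes. Between 16 and 64 FPKM, 14.6% of all genes and 2 of 24 spliceosomal genes were past the bound. From there to 4 times that level the values were 12.5% and 1 of 18. At 256 FPKM and above, the share of all genes was higher again at 16.5%, with 0 of 2 spliceosomal genes. Between 4 and 16 FPKM, 21.2% of all genes and 0 of 5 spliceosomal genes were past it. Among the 9258 genes at or above the level of SF3B4, the lowest of the set, 17.6% were past the bound, and the median absolute log2 fold change was 0.15, against 0.16 for the 50. At matched levels the typical difference of the set was larger than that of all genes in the bins that hold most of it: the median absolute log2 fold change was 0.20 against 0.14 between 16 and 64 FPKM, and 0.14 against 0.13 in the next bin. Between 4 and 16 FPKM it was smaller, at 0.12 against 0.17.

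**Figure D1:**
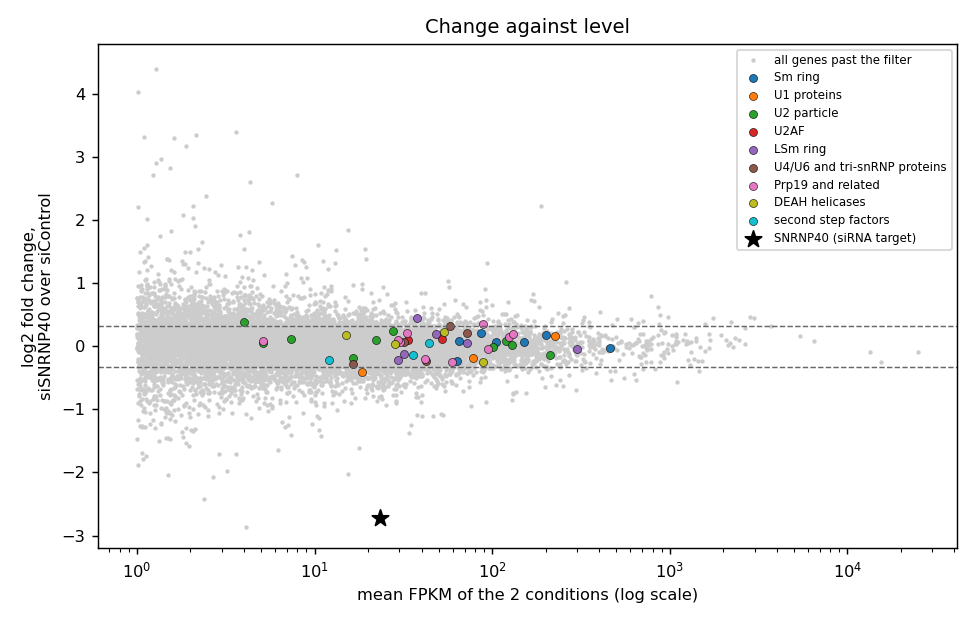
Log2 fold change of summed FPKM (vertical) against the mean FPKM of both conditions (horizontal, log scale), with 1 point per gene: grey for all 12334 genes, coloured by subcomplex for the 50 spliceosomal genes and a star for SNRNP40. Dashed lines mark the bound of 25% higher or 20% lower, and 46 of the 50 coloured points lie between them while SNRNP40 stands far below at -2.72.

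Sm proteins form the ring of 7 that most spliceosomal RNAs carry from the cytoplasm into the nucleus. Their mRNAs were the most abundant group, with a median of 102 FPKM in siControl and 107 FPKM in siSNRNP40 cells. SNRPG was the highest of the 50 genes, at 462 FPKM in siControl and 456 FPKM in siSNRNP40 cells. SNRPD2 followed within the ring at 189 and 215 FPKM. SNRPB, which encodes the B and B' proteins, was at 148 and 155 FPKM, and SNRPF at 102 and 107 FPKM. The ring's largest increase was that of SNRPE, from 80.1 to 93.0 FPKM (log2 fold change 0.22), and its largest decrease that of SNRPD1, from 68.5 to 58.6 FPKM (-0.22). SNRPD3 stood at 63.5 and 67.1 FPKM.

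Ring proteins are needed in equal number, yet their mRNA levels per length were not equal. The highest mean FPKM, of SNRPG, was 7.22 times the lowest, of SNRPD1. SNRPG has 20 named pseudogenes and an annotated transcript of 594 bases, against 0 and 4858 bases for SNRPD1. Whether such features bear on the spread was not tested. SNRPD3 was the lowest of the ring in siControl and SNRPD1 in siSNRNP40 cells. The ring's median log2 fold change was 0.069, and none of the 7 was past the bound. SNRPN, whose protein is nearly the same as that of SNRPB, was listed at 0 in both conditions.

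U1 proteins gave the set's one decrease past the bound. SNRPA, which binds a stem-loop of the U1 RNA, was at 21.3 FPKM in siControl and 16 FPKM in siSNRNP40 cells, 24.9% lower (log2 fold change -0.41). Of all genes, 84.9% had a smaller absolute change. SNRPA lies at chr19:41256542-41271294 on the plus strand (GRCh37), with 6 exons. SNRNP70, the 70K protein that bridges U1 and splicing regulators, was also lower, at 82.8 and 72.5 FPKM (-0.19). SNRPC, which steadies the pairing of U1 with the splice site, was higher, at 212 and 237 FPKM (0.16). The 3 proteins of this one particle thus differed in both directions.

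Proteins of the U2 particle, 10 genes, had a median log2 fold change of 0.073, with 7 above 0 and 3 below. SNRPA1, which docks on the U2 RNA, was at 25.3 FPKM in siControl and 30.0 FPKM in siSNRNP40 cells (0.24). Its binding partner SNRPB2 was at 102 and 101 FPKM. All 3 SF3A subunits were slightly higher after SNRNP40 siRNA, with SF3A1 at 5.03 and 5.24 FPKM, SF3A2 at 7.08 and 7.67 FPKM and SF3A3 at 116 and 124 FPKM. The widest spread of levels of any group was here, since the highest mean FPKM, of SF3B1, was 53.1 times the lowest, of SF3B4.

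SF3B subunits clasp the branch point, and SF3B1 is its main scaffold and a gene often mutated in blood cancers. SF3B1 was at 222 FPKM in siControl and 202 FPKM in siSNRNP40 cells (-0.14). SF3B2 was at 128 and 130.3 FPKM, and SF3B5, the smallest subunit, at 21.4 and 23.0 FPKM. SF3B3 was at 17.5 and 15.5 FPKM, the largest decrease of the particle (-0.18). SF3B4, which contacts the pre-mRNA near the branch point, was the lowest of all 50 genes and the particle's largest increase, from 3.47 to 4.52 FPKM (0.38). It is in the range of 1 to 4 FPKM, where 40.6% of all genes were past the bound.

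U2AF reads the downstream splice site, U2AF2 its pyrimidine tract and U2AF1 its terminal AG. Both sums were slightly higher in siSNRNP40 cells: U2AF1 at 32.6 and 35.0 FPKM and U2AF2 at 50.3 and 54.5 FPKM, with log2 fold changes of 0.10 and 0.12. With its most expressed transcript alone, U2AF2 turned to -0.090. U2AF1L4, a relative of U2AF1, was far lower, at 2.47 FPKM in siControl and 3.27 FPKM in siSNRNP40 cells.

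LSm proteins form the ring at the end of the U6 RNA, and most of them also serve a cytoplasmic ring of mRNA decay, in which LSM1 takes a place. LSM7 had the largest increase of the 50 genes, from 31.9 FPKM in siControl to 43.7 FPKM in siSNRNP40 cells, 37.1% higher (log2 fold change 0.46). Of all genes, 87.6% had a smaller absolute change. LSM7 lies at chr19:2321519-2328610 on the minus strand (GRCh37), with 4 exons. No other LSm mRNA was past the bound. LSM6 was at 44.9 and 51.8 FPKM and LSM4 at 70.8 and 73.3 FPKM. LSM3, the ring's most abundant mRNA, was at 304 and 295 FPKM, and LSM2 at 33.0 and 30.4 FPKM. LSM5 was the lowest of the ring and its largest decrease, from 31.6 to 27.2 FPKM (-0.22).

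Across the LSm ring the median log2 fold change was 0.0012, with 3 genes above 0 and 3 below. Levels were even less alike than in the Sm ring, the highest mean FPKM being 10.2 times the lowest. LSM1, from the cytoplasmic ring, was at 31.2 FPKM in siControl and 30.7 FPKM in siSNRNP40 cells. LSM8, which completes the nuclear ring, was not analysed here.

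Proteins of U4/U6 and the tri-snRNP are those that work beside U5. PRPF4, which with PRPF3 holds U4 to U6, lay just inside the bound: it was at 51.3 FPKM in siControl and 64 FPKM in siSNRNP40 cells (log2 fold change 0.319, against a bound of 0.322). PRPF3 was at 66.6 and 77.6 FPKM (0.22), and SART1, a tri-snRNP protein, at 31.2 and 32.8 FPKM. USP39, a tri-snRNP protein related to deubiquitinases, was lower, at 45.6 and 38.7 FPKM (-0.24). PRPF38A, which joins as the spliceosome is about to activate, had the largest decrease of this group, from 18.1 to 14.9 FPKM (-0.28). The group's median was 0.073, with 3 genes above 0 and 2 below.

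The Prp19 complex and its partners, 10 genes, had a median log2 fold change of 0.099, with 7 above 0 and 3 below. PRPF19, the ubiquitin ligase that names it, was at 30.5 FPKM in siControl and 35.4 FPKM in siSNRNP40 cells (0.21). Its partner CDC5L had the group's largest decrease, from 64 to 54.2 FPKM (-0.24), and PLRG1, which binds CDC5L, went from 44.9 to 38.9 FPKM (-0.20). BCAS2 was at 117 and 130.2 FPKM, and CWC15 at 121 and 139 FPKM. PLRG1 turned to 0.038 when its most expressed transcript was taken in place of the sum.

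SYF2, a small protein of the activated spliceosome, was the group's one gene past the bound, from 77.7 to 99.4 FPKM, 28.0% higher (0.36). It lies at chr1:25548767-25558993 on the minus strand (GRCh37), with 7 exons, and 80.3% of all genes had a smaller absolute change. CRNKL1, a scaffold of many helical repeats, was at 29.6 FPKM in siControl and 31.1 FPKM in siSNRNP40 cells. XAB2, a scaffold that also acts in transcription-coupled repair, was low at 4.99 and 5.30 FPKM. AQR, the helicase that binds the intron, was at 28.4 and 30.6 FPKM. SNW1, which is also a transcriptional co-regulator, was at 96.0 and 93.7 FPKM.

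The 4 DEAH-box helicases act in order. DHX16, which triggers the first step, was at 49.7 FPKM in siControl and 57.9 FPKM in siSNRNP40 cells (0.22). DHX38, which acts between the steps, was at 14.1 and 16.1 FPKM (0.19), and DHX8, which frees the spliced mRNA, at 28.0 and 28.8 FPKM (0.038). DHX15, which takes the spent spliceosome apart, was the group's most abundant and the only one lower, at 95.8 and 80.9 FPKM (-0.25). Of the 3 second-step factors, CDC40 was at 13.0 and 11.2 FPKM (-0.22), SLU7 at 37.6 and 34.4 FPKM (-0.13) and PRPF18 at 43.3 and 45.2 FPKM (0.062). None of these 7 genes was past the bound.

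**Figure D2:**
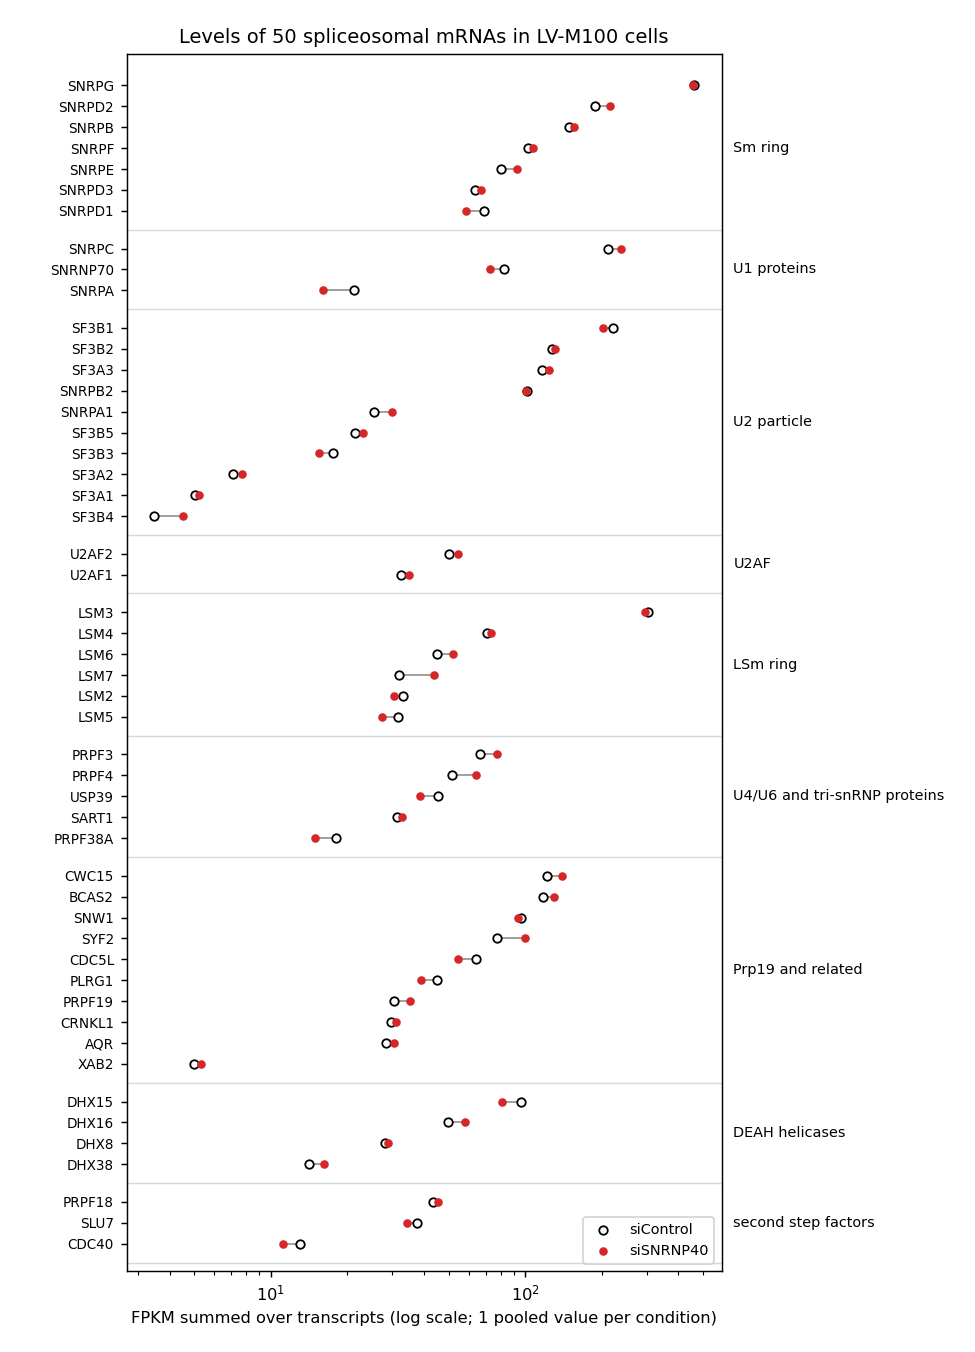
FPKM summed over transcripts (horizontal, log scale) for each of the 50 genes, with an open circle for siControl, a red circle for siSNRNP40 and 1 pooled value per condition, so no error bars. Levels span from 3.47 FPKM for SF3B4 to 462 FPKM for SNRPG, and the pairs of circles nearly touch for most genes, with the longest lines at LSM7, SNRPA, SF3B4 and SYF2.

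Set beside each other, 7 of the 9 subcomplexes had a median above 0. The LSm ring's median, at 0.0012, turned to -0.0022 when centred on the median of all genes and to -0.0014 with the most expressed transcript. With summed FPKM the highest were those of the helicases and U2AF at 0.11, but with the most expressed transcript of each gene these came to 0.045 and 0.031, below the 0.099 of the Prp19 group. The lowest were those of the U1 proteins at -0.19 and the second-step factors at -0.13, each of only 3 genes. No subcomplex had 2 genes past the bound. Order among the genes was kept almost entirely, with a Spearman correlation of 0.987 between the FPKM of the conditions over the 50 genes and also of 0.987 over all 12334. Genes are not independent replicates, and both correlations come from the same pooled libraries.

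Related genes outside the set were described from lists that were also chosen with earlier results known. Of 11 U5-specific proteins and tri-snRNP partners, 2 were past the bound (18.2%, against 23.4% of all genes). Both were higher and lie between 16 and 64 FPKM, where 14.6% of all genes were past it. The median of the list was 0.046. SNRNP27, a small tri-snRNP protein, was at 46.1 FPKM in siControl and 77.0 FPKM in siSNRNP40 cells (0.74), a larger change than any of the 50 genes had. DDX23, the helicase that readies the tri-snRNP, was at 56.0 and 70.5 FPKM (0.33). PRPF8, the catalytic scaffold of U5, was at 34.7 and 30.0 FPKM (-0.21), and NHP2L1, which binds U4, at 28.1 and 27.1 FPKM.

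Factors that build the Sm ring had the highest median of the lists, 0.11 over 13 genes, with 11 above 0. GEMIN7 at 4.73 and 7.40 FPKM (0.64) and GEMIN8 at 4.56 and 6.71 FPKM (0.56), both subunits of the SMN complex, were past the bound. That was 15.4% of the list, against 23.4% of all genes. Both lie between 4 and 16 FPKM, where 21.2% of all genes were past it. The lowest of this list were DDX20 at 24.5 and 23.9 FPKM and CLNS1A at 134 and 132 FPKM. SMN1 was not analysed here.

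Of 10 proteins of the minor spliceosome, which removes a rare class of introns, 1 was past the bound, 10% against 23.4% of all genes. Their median was 0.049. SNRNP35, the gene past it, was at 14.9 FPKM in siControl and 20.6 FPKM in siSNRNP40 cells (0.46). Its mean lies between 16 and 64 FPKM, where 14.6% of all genes were past the bound. CENATAC, listed as CCDC84, was at 14.4 and 17 FPKM (0.24). RNPC3 was at 6.47 and 5.22 FPKM (-0.31), and ZMAT5 at 8.67 and 7.52 FPKM (-0.20). Of 40 further spliceosomal proteins none was past it, and the median was 0.012, or -0.023 with the most expressed transcript. Toward the ends of that list were DDX41 at 25.7 and 32.0 FPKM, SMNDC1 at 9.32 and 7.67 FPKM, and BUD13 at 26.3 and 22.4 FPKM.

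**Figure D3:**
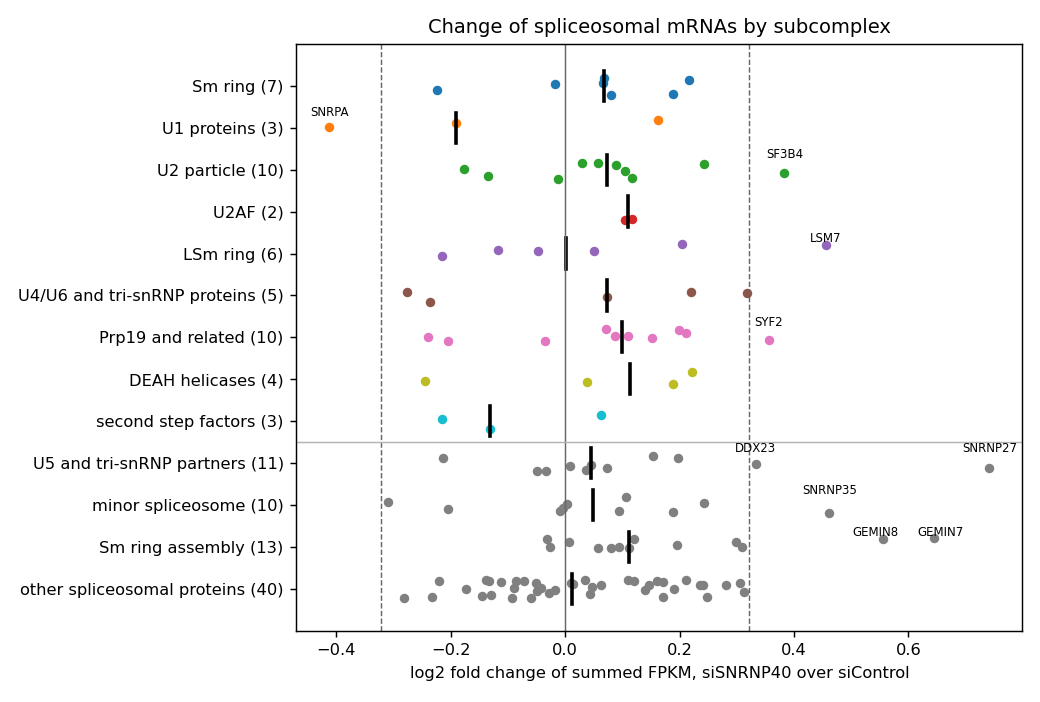
Log2 fold change of summed FPKM, siSNRNP40 over siControl, for each gene (points, spread vertically for legibility) in the 9 subcomplexes and, below the line, in 4 lists of related genes, shown in grey; black bars are medians and dashed lines mark the bound of 25% higher or 20% lower. Named points lie past it, 4 among the 50 genes and 5 in the lists, with SNRNP27 farthest at 0.74.

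Single transcripts of the set were also stable in share. Of the 50 genes, 14 had several transcripts above 0, and transcripts are known here only by assembly number. Of the 62 transcripts of the set with a mean of at least 1 FPKM and a finite fold change, 2 were past 2-fold, 3.23%, against 10.5% of 16691 such transcripts in the table. Restricted to genes with several transcripts, the values were 2 of 26 and 17.4%. The share of a gene's FPKM taken by one transcript shifted by 10 percentage points or more in 1 of the 14 genes, against 43.8% of the 4945 genes in the table with several transcripts. Numbers and levels of transcripts differ between these sets, and no adjustment for them was made.

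PLRG1 had the largest shift. Its minor transcript was at 7.41 FPKM in siControl and 0.497 FPKM in siSNRNP40 cells (log2 fold change -3.90), which took its share from 16.5% to 1.28%. The major transcript was at 37.4 and 38.4 FPKM, so the lower sum of PLRG1 lay in the minor form. The other transcript past 2-fold was a minor form of SNRPD2, at 4.86 and 2.34 FPKM (-1.05), beside a major form at 184 and 213 FPKM.

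In U2AF2 the second transcript took 25.6% of the FPKM in siControl and 35.6% in siSNRNP40 cells, going from 12.9 to 19.4 FPKM, while the first was at 37.4 and 35.2 FPKM. In DHX16 the minor transcript went from 13.4 to 20.4 FPKM (27.1% and 35.1%) and the major one from 36.2 to 37.6 FPKM. The higher sum of U2AF2 therefore lay in its minor transcript, and that of DHX16 mostly so. For PRPF4 the minor form went from 6.78 to 11.8 FPKM and the major from 44.6 to 52.2 FPKM. A minor form of SF3B1 went from 17.3 to 10.9 FPKM beside a major form at 205 and 191 FPKM.

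SNRPB2 was the one gene whose most expressed transcript differed between conditions, against 15.9% of the 4945 genes. Its 2 forms were nearly equal, at 50.9 and 50.7 FPKM in siControl and at 47.7 and 53.0 FPKM in siSNRNP40 cells, so the order turned on a small difference. USP39 had 8 transcripts, of which the major one was at 31.1 and 28.5 FPKM and the next at 12.4 and 9.69 FPKM. The major forms of U2AF1 were at 25.2 and 28.0 FPKM, of SNRPB at 118 and 126 FPKM, and of LSM5 at 29.6 and 25.2 FPKM. In SF3A1, LSM4 and SNRPC one transcript held over 97% of the FPKM in both conditions. Such transcript values rest on a model that divides shared fragments between overlapping forms.

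**Figure D4:**
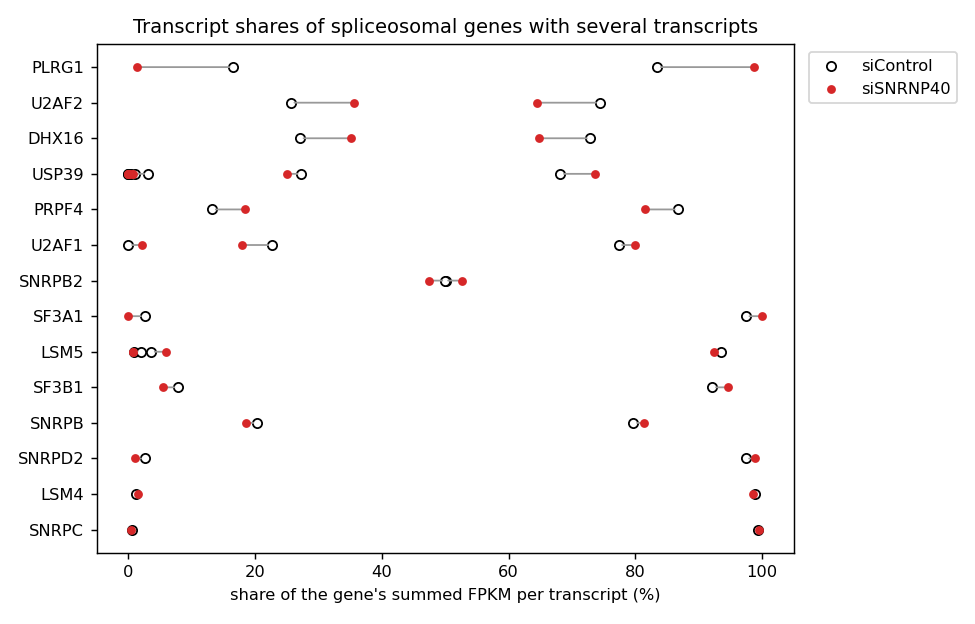
Share of the gene's summed FPKM held by each transcript (horizontal, %) in siControl (open) and siSNRNP40 (red) for the 14 genes with several transcripts above 0, ordered by their largest shift. Lines join the 2 values of a transcript; PLRG1 at the top shows the only shift past 10 points, from 16.5% to 1.28% for its minor form.

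Several features of the genes could bear on how their reads were counted. Small RNA-binding proteins of this machinery have many processed copies in the genome: 17 of the 50 genes had 74 named pseudogenes in the annotation, 20 of them of SNRPG, 18 of SNRPC and 10 of SNRPE. Of these only 1 was listed in the table, SNRPD2P2 at 0, and how fragments from such copies were assigned was not tested. The number of copies and the mean FPKM had a Spearman correlation of 0.39 over the 50 genes, and without the 17 genes the median log2 fold change of the set was 0.050.

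Exons of 6 members overlapped coding genes on the opposite strand, and the sources used here do not say whether strand was used in counting. SNRPA overlaps ACTMAP, listed as C19orf54, which was at 1.12 FPKM in siControl and 0.962 FPKM in siSNRNP40 cells. DHX16 overlaps C6orf136, at 2.14 and 4.04 FPKM, and SF3A2 overlaps PLEKHJ1, at 11.6 and 15.9 FPKM. SNW1 overlaps SLIRP at 181 and 193 FPKM, DHX38 overlaps TXNL4B at 3.99 and 5.0 FPKM and PMFBP1 below 0.1 FPKM, and SF3A1 overlaps CCDC157 at 0.888 and 0.822 FPKM. Levels of these neighbours were below that of the member except for PLEKHJ1 and SLIRP. Exons of 2 members, SNRPB and SNRPD3, overlapped another annotated coding gene on the same strand, whose level was not looked up. The part of any of these neighbours in the members' values was not tested.

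Longer genes of the set tended to lower fold changes. The Spearman correlation of the log2 fold change with the genomic span was -0.39 over the 50 genes and -0.15 over 11457 genes with a match in the annotation, and with transcript length it was -0.36 and -0.13. For GC content it was 0.24 and 0.21, and for the number of exons, from 1 in SF3B5 to 35 in AQR, -0.10 and -0.10. The points share the same libraries. Coding sequences under 500 bases gave a median log2 fold change of 0.074 in 14 spliceosomal genes and of 0.046 in 978 genes of the table, against 0.069 in 36 and -0.0058 in 10070 with longer ones.

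Matches to the siRNA seeds were rare in the set. In the 3' UTR of the annotated transcript, the 7 bases in capitals for siRNA #1 occurred in CDC5L and CDC40, and those of siRNA #2 in SNRPB2, SF3B3 and SLU7. All 5 genes were below 0, as were 6101 of all 12334 genes, with medians of -0.23 over 2 genes and -0.13 over 3. SNRPB2 was at only -0.013 and turned above 0 with upper quartile scaling. No allowance was made for transcript length, which went with lower fold changes in the set. Over the table, 11.8% of genes matched siRNA #1 and had a median of -0.084 against 0.010 without a match, and 8.60% matched siRNA #2 with a median of -0.050 against 0.0044. SNRPA, the decrease past the bound, had no match to either. A match of 7 bases is a description and not a site of action.

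Promoters of the set were read because genes of one machine can share start-site letters. RefSeq promoter sequence on GRCh38.p14 was given for 46 of the 50 genes, all but LSM6, PRPF3, SF3B3 and SNRPD1. In the 250 bases before the start, on both strands, the letters CCGGAAG, the core bound by ETS-family factors, were present in 24 of 46 (52.2%), against 17.3% of the 9306 promoters of genes past the filter and 8.52% of all 35116. They were in 7 of 9 promoters of the U2 particle, 4 of 6 of the Sm ring, 3 of 4 of the helicases, 5 of 10 of the Prp19 group, 2 of 3 of the second-step factors, 1 of 4 of the U4/U6 and tri-snRNP group, 1 of 3 of U1, 1 of 2 of U2AF and 0 of 5 of the LSm ring.

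Other motifs were closer to the background. GGGCGG, the SP1 box, was in 67.4% of the 46 promoters and 67.8% of those past the filter. CCAAT was in 30.4% and 35.9%, and TATAAA in 6.52% and 5.07%. GCATGCGC, part of the NRF1 site, was in 4 promoters, of LSM7, SART1, SF3A2 and U2AF1 (8.70%, against 5.10%), and AAGATGGCG, part of a YY1 site, was in 0 of 46 against 1.14%. Of these motifs none contains another, but their matches may overlap in a promoter.

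Windows around the match are shown for the gene with the largest increase of each subcomplex, to let the letters around the core be compared. PRPF4, that gene in its group, held neither motif and has no window. Capitals mark the ETS core, in either direction, and in LSM7 the NRF1 letters. Each is written 5' to 3' on the strand of its gene.
SNRPE: ttctttattCCGGAAGttgctctcag
SNRPC: atacgctcttCCGGAAGcaccgacaaa
SF3B4: cgtcttcgccCCGGAAGtggaagtcgt
U2AF2: ccggcggcggCCGGAAGtagccgaagc
LSM7: cccgggccacGCATGCGCcgcgcatgcg
SYF2: cggagacctcCCGGAAGgggcggggct
DHX16: agtacagcccCTTCCGGgctcc
PRPF18: ccagcttccgCCGGAAGcggctcctgt
On GRCh38.p14 they lie at chr1:203861597-203861622 (plus strand), chr6:34757284-34757310 (plus), chr1:149927813-149927839 (minus), chr19:55654995-55655021 (plus), chr19:2328626-2328653 (minus), chr1:25232563-25232589 (minus), chr6:30673007-30673028 (minus) and chr10:13586937-13586963 (plus). The first base of the match was 26 bases before the start in SF3B4, 77 in SYF2 and 57 in LSM7, which also held the reverse letters at 48. SYF2 and SNRPC each held a further match in the reverse direction, at 91 and 214 bases before the start, the latter overlapping the one shown. SNRPA, whose level was lower, held neither the ETS nor the NRF1 letters but did hold the SP1 box and CCAAT. Without the ETS letters were 22 of the 46 promoters, while PLRG1, SLU7, SNRPB2 and SNRPG held them and were lower.

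The 24 genes with ETS letters had a median log2 fold change of 0.099, with 20 above 0. The 22 without had a median of -0.042, with 10 above 0, and 50.5% of all genes were above 0. Among genes past the filter that had a promoter sequence, the medians were 0.0007 in 1614 with and -0.0023 in 7718 without the ETS letters. The set was split by the other motifs too. Medians with and without the letters were 0.11 (4 genes) and 0.065 for NRF1, and 0.080 and 0.067 for SP1. They were 0.078 and 0.069 for CCAAT, and 0.16 (3 genes) and 0.069 for TATAAA. These genes were measured in the same pooled libraries, and no test was made of these splits.

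**Figure D5:**
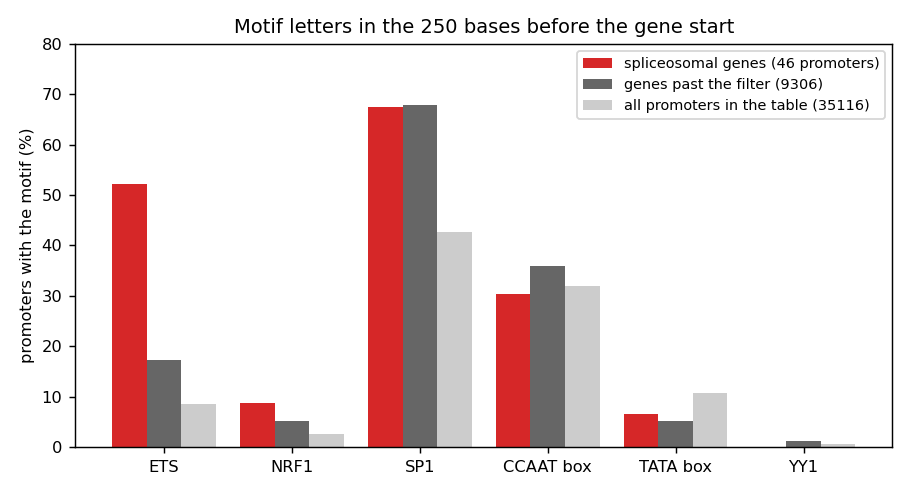
Percentage of promoters (vertical, from 0) that hold each motif on either strand within 250 bases before the start, for the spliceosomal genes (red, 46 promoters), genes past the filter (dark grey, 9306) and all promoters of the table (light grey, 35116). The ETS bars differ most, at 52.2%, 17.3% and 8.52%, while the SP1 bars of the first 2 groups are nearly equal.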

How the data were processed

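Total RNA of 4 libraries, 2 per condition, was depleted of ribosomal RNA (Ribo-Zero Gold), made into ScriptSeq v2 libraries and sequenced on an Illumina HiSeq. Per the methods and the submitters' processing notes, linkers and poor bases were removed (cutadapt 1.2.1), the trimmed reads were aligned to hg19 (TopHat2 2.0.8), transcripts were assembled and merged by Cufflinks, and Cuffdiff 2.0.2 gave the table. The deposited values are FPKM per assembled transcript, normalized by the authors for length and mapped fragments, with the 2 libraries of a condition pooled into 1 value. Depth and the use of strand are not given in the sources used here. The table also holds the authors' own log2 fold changes, test statistics, p-values and q-values, which were not used.

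FPKM were summed over all transcripts of a symbol with Python 3.11.15, pandas 2.3.3 and numpy 2.4.6. Genes with a mean of at least 1 FPKM were compared as log2 ratios without a pseudocount, and a level 25% higher or 20% lower served as a bound of description, also 1.5-fold and 2-fold. With 1 value per condition no test, interval or replicate error could be had, and the analysis planned for values per library was not run. The calculation was run on simulated data in which only 2-fold differences were planted, which does not test values near the bound. The 50 genes, the lists and the bounds were chosen with earlier results of these data known. All 50 genes are named, with, in each list of related genes, up to 2 largest rises and 2 largest falls. One gene that this rule would name is not reported here. Annotation was GENCODE release 44 on GRCh37, matched for 92.9% of the 12334 genes. Promoters came from RefSeq on GRCh38.p14, and no coordinate was converted. Exon, overlap and seed counts used 1 annotated transcript per gene. Alternatives were another filter, pseudocount, fold, scaling or transcript choice.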

Additional observations from a re-analysis of the deposited data

How the results depend on the processing

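No paired analysis was possible because each condition has 1 pooled value, and for the same reason no library could be left out. Of 140 values of the main results recomputed under the alternatives, 127 stayed within 0.1 on the log2 scale or 1.5 times a count. Medians near 0 changed sign within that range: the LSm ring (-0.0014 with the most expressed transcript, -0.0022 centred) and the further spliceosomal proteins (-0.023 with the most expressed transcript). SNRNP40 stood at -2.54 with a pseudocount of 1. The share of all genes past the bound was 37.2% with no filter on level, 7.02% at 1.5-fold and 1.47% at 2-fold. In alternatives chosen after seeing the data it was 40.6% from 1 to 4 FPKM, 14.6% from 16 to 64 FPKM and 12.5% from there to 4 times that level. The number of spliceosomal genes past the bound was 0 up and 0 down at 1.5-fold and at 2-fold. The share of their transcripts past 2-fold was 0 at a mean of at least 5 FPKM and 1.61% with a pseudocount of 1. Their median log2 fold change ranged from 0.050 to 0.099. Spliceosomal genes past the bound and higher numbered 2 with a pseudocount of 1 or a mean of at least 5 FPKM, and 4 with upper quartile scaling. Of 299 values of single genes, 295 stayed within 0.1. SNRPG (0.011) and SNRPB2 (0.016) nonetheless turned above 0 with upper quartile scaling, and SNRPB2 (0.063) with the most expressed transcript. Many of the 299, and of the 140, were bound to stay. A filter on level leaves a gene's ratio as it is, and centring or scaling shifts all genes by the same amount. Only the 14 genes with several transcripts above 0 could change with the choice of transcript, and 4 of them moved. With the most expressed transcript in place of the sum, the log2 fold change was -0.090 for U2AF2, -0.12 for USP39, 0.038 for PLRG1 and 0.053 for DHX16, since these genes' differences lay partly in other transcripts.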

Other observations

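Of the 93 transcripts of the set, 20 were listed at 0 in both conditions. Of those, 19 lie on alternative contigs of chromosome 6, 14 of DHX16 and 5 of LSM2, and add nothing to the sums. A further 7 were listed at 0 in 1 condition, the highest of them at 0.748 FPKM in the other. Of the 50 genes, 8 lie on chromosome 19, among them LSM7 and SNRPA. The share of all genes on that chromosome was not computed, so this count has no background beside it.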
